A study of Mus musculus with 6 samples.

Results

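The Wnt signaling genes described here are 42 chosen by their place in the pathway: 11 ligands and ligand partners, 11 receptors, 10 cytoplasmic and nuclear parts, and 10 feedback and secreted inhibitors. A probe with a gene symbol measured 41 of them, out of 19038 named genes on the array. The transcription factor gene Tcf7 had no named probe and is not analysed here. Their RNA was read in irradiated mouse intestine on Illumina MouseWG-6 v2 BeadChips, 1 array for each of 6 samples. According to the sample labels, male C57 mice aged 4 weeks, kept under specific pathogen-free conditions, received 7 Gy of total body radiation, then phosphate buffered saline (PBS, n = 3) or free ubiquitin (free Ub, n = 3), and the intestine was taken 3.5 days after radiation. Free Ub is monomeric ubiquitin, the small protein that is otherwise joined to other proteins, given here as an injected recombinant protein. Both groups were irradiated and no unirradiated intestine was on the arrays, so every difference below is free Ub minus PBS after radiation. The study's methods and a figure legend differ from the labels on the age of the mice, on the hour of collection and on whether the injection came before radiation. The comparison asked how free Ub changed the transcripts of the irradiated intestine.

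Wnt ligands are secreted proteins that keep the stem cells at the base of the intestinal crypt dividing. Without them, a destruction complex built on the scaffolds Apc and Axin holds beta-catenin (Ctnnb1) while the kinases Csnk1a1 and Gsk3b mark it for degradation. When a Wnt binds a Frizzled receptor (Fzd) together with Lrp5 or Lrp6, Dishevelled (Dvl) draws Axin to the membrane, beta-catenin accumulates and joins Tcf and Lef factors on DNA, and target genes such as Axin2 are transcribed. R-spondins (Rspo) raise the number of receptors at the cell surface by acting through Lgr receptors on the ubiquitin ligases Znrf3 and Rnf43, which otherwise remove Frizzled.

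Values are log2 signals as normalized by the authors. Between 32.2 and 33.7% of the probes on each array stood at that array's lowest value, close to 0 on the log2 scale, which is called the floor below and gives no measured level. Each gene was read on the probe that gave the highest average signal, and a level was never set against that of another gene, since probes differ in their response. Of the 41 measured members, 24 were above the floor on all 6 arrays, 12 were at it on 1 to 5 arrays, and 5 were at it throughout: Wnt11, Rspo1, Rspo2, the R-spondin receptor Lgr4 and the secreted inhibitor Dkk2. The spread within groups set what could be read. The median SD was 0.27 log2 for the 11 members with a mean above 6, 0.34 for the 5 with a mean of 4 to 6, and 1.12 for those under 4 that had a signal. Over all named genes, any 2 of the 6 arrays correlated at 0.94 to 0.956.

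**Figure D1:**
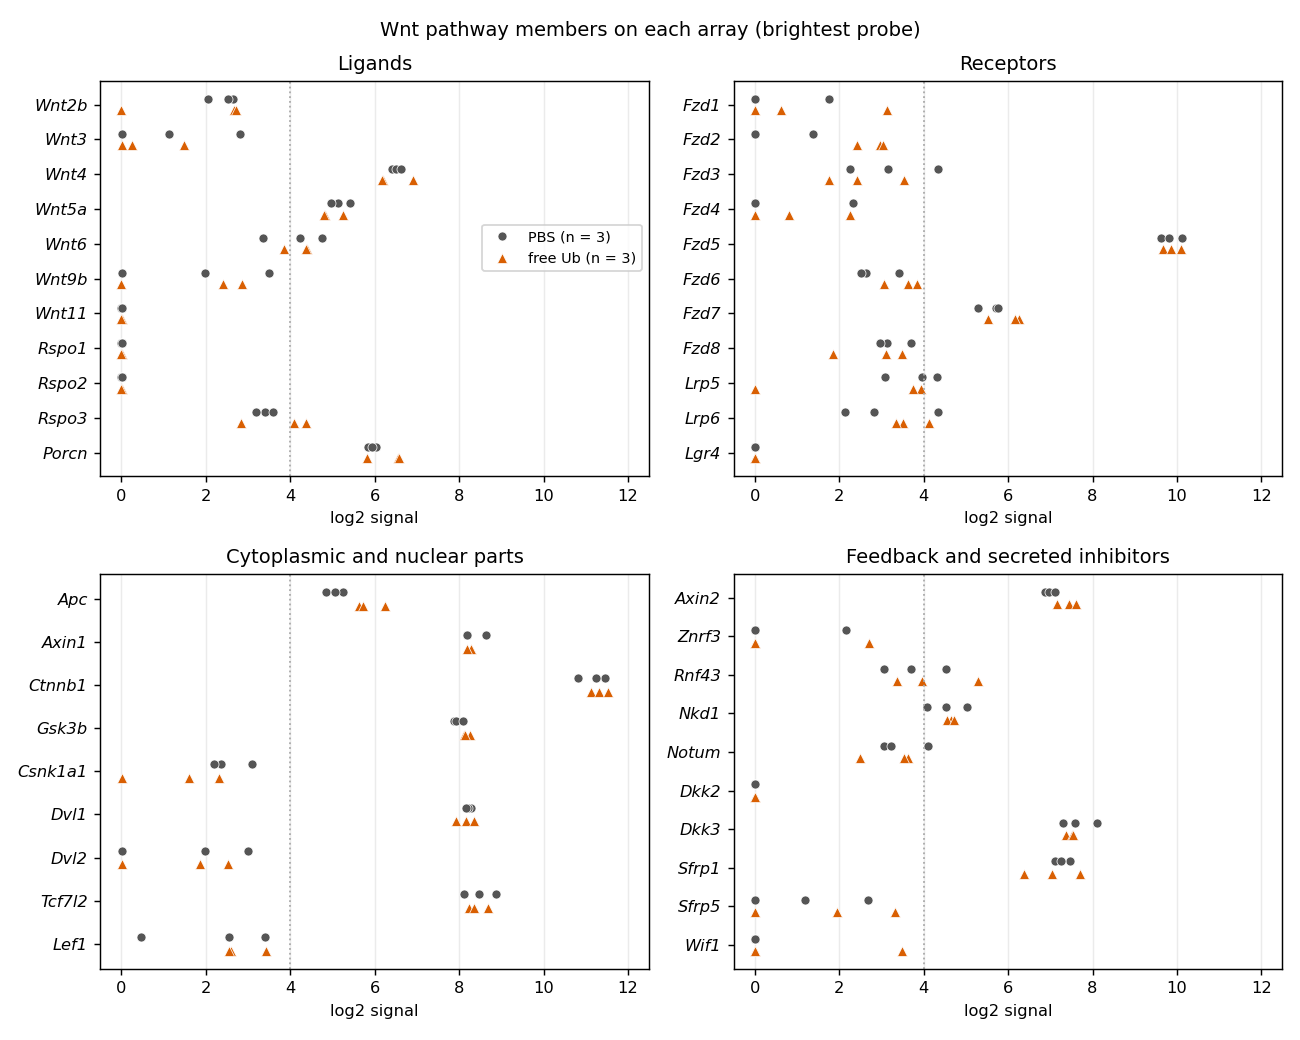
Log2 signal of each of the 41 measured members on each array, in 4 panels by role, with PBS arrays as grey circles, free Ub arrays as orange triangles (n = 3 each) and a dotted line at 4 log2. Most members to the right of the line vary less within a group than those to its left, with Wnt6 and Sfrp1 among the wider ones, and the groups of Apc, Gsk3b, Axin2 and Fzd2 do not overlap.

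Apc, Axin2 and Fzd2 had an unadjusted p under 0.05 in limma, all 3 with higher signal after free Ub, and none of the 41 members passed after Benjamini-Hochberg adjustment over all named genes, where the smallest adjusted p was 0.618. In the same fit 5.56% of all named genes had an unadjusted p under 0.05 in either direction, 2.24% with higher signal after free Ub, and 0.0578% passed the adjustment. The 3 members are 7.32% of those measured. At the threshold of the study's methods, a fold change above 2 with an unadjusted p under 0.05, 1 member (Fzd2) was called, or 2.44%, beside 2.29% of all named genes. The count of 3 rested on which arrays entered. It was 6 without free Ub replicate 1, where Wnt4, Rspo3 and Fzd7 joined, 5 without PBS replicate 3, where Lrp6 and Gsk3b joined, and 2 without PBS replicate 1 or without free Ub replicate 3, where Axin2 dropped out. The number of all named genes with such a p moved too, from 1059 to 1335 without free Ub replicate 1 and to 1436 without PBS replicate 3. Leaving out an array that stands apart from its group lowers the spread, so a p gained that way does not support a single member.

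Groups that did not overlap were found for 4 members, Apc, Axin2, Gsk3b and Fzd2, each higher in free Ub. They are 9.76% of the measured members, beside 8.76% of all named genes. Among the 16 members with a mean above 4 log2, 3 had groups apart (18.8%), beside 10.7% of the named genes with such a mean. In all, 20 members had a higher mean in free Ub and 16 a lower one, the 5 at the floor counting as neither. The median difference was -0.0022 for the members and -0.0022 for all named genes, in both cases the value of genes at the floor throughout. For the 16 members above 4 log2, 9 were higher and 7 lower, with a median of 0.05, beside -0.02 for all named genes above 4. With 3 samples a group, the smallest p that an exact two-sided permutation test allows is 0.1. Any gene whose groups are apart has this value by construction, so it adds nothing for these 4 genes. No source says whether the replicates were separate animals, and the p-values measure the spread between these samples.

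**Figure D2:**
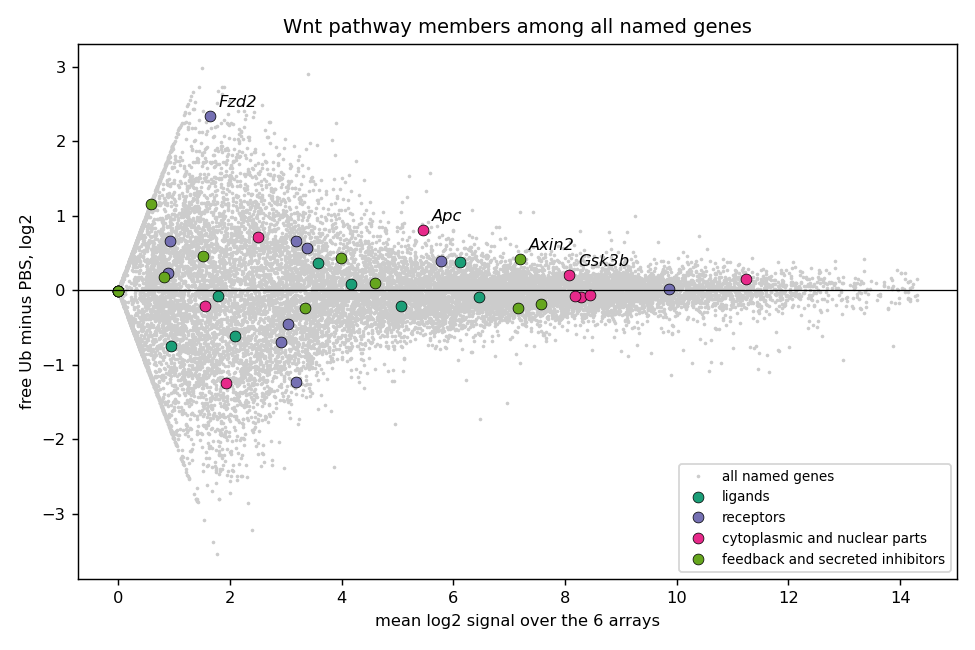
Difference between groups (free Ub minus PBS, log2) against the mean log2 signal over the 6 arrays for all 19038 named genes (grey) and the members (coloured by role). The members lie within the grey cloud, which widens below 4 log2, and the 4 labelled genes are those whose groups did not overlap.

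Apc, Gsk3b and Axin2, which were 3 of these 4 genes, act in the destruction complex. Apc, the scaffold whose loss lets beta-catenin accumulate in intestinal tumors, had log2 signals of 4.85, 5.25 and 5.05 on PBS replicates 1 to 3 and of 5.63, 6.25 and 5.71 on free Ub replicates 1 to 3. Every free Ub array lay above every PBS array, by at least 0.38 log2. The difference was 0.81 log2 (95% interval 0.26 to 1.37), or 1.76-fold (5.05 ± 0.20 against 5.86 ± 0.34, SD, n = 3), with an unadjusted p under 0.05 and an adjusted p of 0.746 in limma. The other 3 probes of Apc did not share this. Its second probe by signal differed by 0.01 log2, with overlapping groups. The third gave 4.24, 3.28 and 2.68 in PBS and, in free Ub, the floor on replicate 1 and then 2.56 and 2.36, so that its groups were apart in the opposite direction, without reaching an unadjusted p under 0.05. The fourth was above the floor on 1 array. With the mean of the 4 probes in place of the highest one, the difference of Apc was -0.07, and with values under 6 log2 raised to 6 it was 0.08, both with an unadjusted p above 0.05. The Apc values therefore describe 1 probe.

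**Figure D3:**
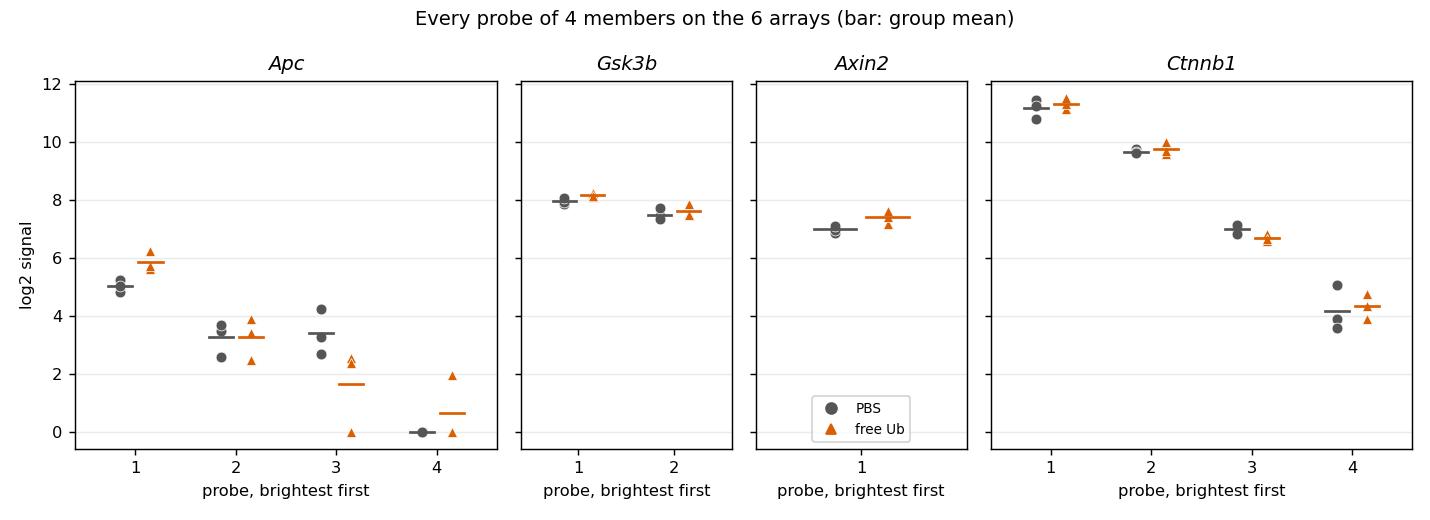
Log2 signal of every probe of Apc, Gsk3b, Axin2 and Ctnnb1 on the 6 arrays, numbered from the highest mean, with PBS as grey circles, free Ub as orange triangles and bars at the group means. The first probe of Apc was higher in free Ub and the third lower, the 2 Gsk3b probes differed by 0.21 and 0.12 log2, and Axin2 had a single probe.

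Gsk3b, the kinase that phosphorylates beta-catenin, had 7.88, 7.92 and 8.08 in PBS and 8.12, 8.26 and 8.14 in free Ub. The lowest free Ub array stood 0.035 log2 above the highest PBS array. The difference was 0.21 log2 (95% interval -0.01 to 0.43), with an unadjusted p above 0.05 and an adjusted p of 0.878 in limma. Without PBS replicate 3 it was 0.27, with an unadjusted p under 0.05. A second Gsk3b probe gave 7.44, 7.71 and 7.34 against 7.51, 7.85 and 7.47, which overlap. Csnk1a1, the casein kinase that primes beta-catenin for Gsk3b, had 2.55 ± 0.49 in PBS and ranged from the floor to 2.30 in free Ub.

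Ctnnb1, which encodes beta-catenin, had 11.45, 11.24 and 10.81 in PBS and 11.13, 11.30 and 11.53 in free Ub. These groups overlapped, and the interval of the difference, -0.40 to 0.70 log2, held both signs. Of its 4 probes, 3 had higher means in free Ub, and the third by signal had 7.01, 7.15 and 6.84 against 6.84, 6.59 and 6.66, a difference of -0.30 (adjusted p = 0.872 in limma over all probes). The groups of this probe were apart in the lower direction, by less than 0.01 log2. The second scaffold, Axin1, had 8.64, 8.18 and 8.19 in PBS and 8.27, 8.27 and 8.20 in free Ub, and PBS replicate 1 alone stood above the rest.

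Tcf7l2, the Tcf factor through which beta-catenin acts in crypt cells, had 8.12, 8.88 and 8.46 in PBS and 8.23, 8.68 and 8.36 in free Ub, a difference of -0.07 (95% interval -0.70 to 0.57). The groups overlapped. Of the Dishevelled genes, Dvl1 had 8.22 ± 0.07 and 8.14 ± 0.22 on its first probe, while a second probe with means of 3.94 and 4.54 was 0.60 higher in free Ub (adjusted p = 0.872 in limma over all probes), its groups overlapping. Dvl2 was at the floor on 1 array of each group and ranged widely on the others. Lef1, a partner of beta-catenin like the Tcf factors, had 2.14 ± 1.51 and 2.85 ± 0.49. Of the 9 measured cytoplasmic and nuclear parts, 4 had higher and 5 lower means in free Ub, with a median difference of -0.07 that was positive without PBS replicate 1 (0.06) or 2 (0.19) and without free Ub replicate 1 (0.24) or 3 (0.04).

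Among the feedback genes, Axin2 was the 1 member with groups apart. It encodes the second Axin scaffold and is transcribed in response to Wnt, so that its level is commonly read as a sign of the pathway's activity. Its signals were 6.88, 6.96 and 7.12 in PBS and 7.17, 7.43 and 7.62 in free Ub, apart by 0.05 log2. The difference was 0.42 log2 (95% interval 0.04 to 0.79), or 1.34-fold (6.99 ± 0.12 against 7.41 ± 0.23, SD, n = 3), with an unadjusted p under 0.05 and an adjusted p of 0.867 in limma. The direction was the same when any 1 array was left out, with differences of 0.31 to 0.54. The unadjusted p was above 0.05 with PBS replicate 1 left out (difference 0.37), with PBS replicate 2 left out (0.41), and likewise for replicates 2 (0.41) and 3 (0.31) of free Ub.

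**Figure D4:**
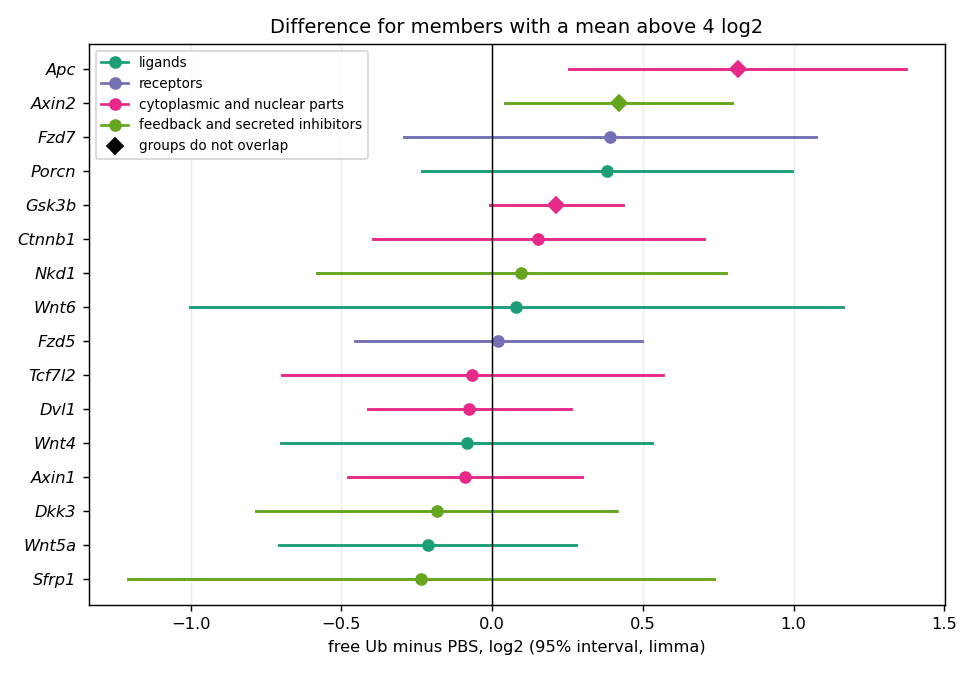
Difference between groups (free Ub minus PBS, log2) with its 95% interval from limma for the 16 members with a mean above 4 log2, coloured by role, with diamonds where the groups did not overlap. The intervals of Apc and Axin2 lie above 0, that of Gsk3b reaches -0.01, and the other 13 include 0.

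The other negative regulators transcribed in response to Wnt had overlapping groups. Nkd1, which binds Dishevelled, had 4.55 ± 0.47 in PBS and 4.64 ± 0.08 in free Ub. Rnf43, one of the ligases that clear Frizzled, had 3.77 ± 0.73 and 4.20 ± 0.98, and its relative Znrf3 was at the floor on 2 arrays of each group. Notum, the secreted enzyme that strips the lipid from Wnt ligands, had 3.46 ± 0.56 and 3.22 ± 0.63.

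The secreted inhibitors with a mean above 6 log2 were Dkk3 and Sfrp1. Dkk3, a Dickkopf family protein, had 8.11, 7.30 and 7.57 in PBS and 7.36, 7.52 and 7.55 in free Ub, with PBS replicate 1 above the other 5 arrays. Sfrp1, which binds Wnt ligands outside the cell, had 7.46, 7.11 and 7.26 in PBS and 6.37, 7.04 and 7.71 in free Ub, so that the free Ub arrays lay on both sides of the PBS arrays. Wif1, another Wnt-binding inhibitor, was at the floor on 5 arrays and at 3.48 on free Ub replicate 3. Sfrp5, of the same family as Sfrp1, was at the floor on 1 array of each group and ranged up to 3.31. Over the 10 genes of this role, 6 means were higher and 3 lower in free Ub, with a median difference of 0.14. This median was -0.07 without PBS replicate 2, -0.16 without free Ub replicate 3 and 0.32 without free Ub replicate 1, and it was -0.04 over genes above the median of the probe means.

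Among the receptors, Fzd2 had the largest difference of any member, and its size was not measured. It was at 1.38, the floor and the floor in PBS, and at 2.41, 2.97 and 3.03 in free Ub. The groups were apart by 1.03 log2. The unadjusted p was under 0.05 and the adjusted p 0.618 in limma, at a level where the SD of members was about 1 log2, and Fzd2 did not enter the fits that raised low values or kept only genes above the median of the probe means.

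The Frizzled genes with a mean above 4 log2 were Fzd5 and Fzd7. Fzd5, the Wnt receptor known from Paneth cells and crypt epithelium, had 9.62, 10.13 and 9.82 in PBS and 9.67, 10.09 and 9.87 in free Ub, a difference of 0.02 with a 95% interval of -0.46 to 0.50. In both groups replicate 2 was the highest and replicate 1 the lowest, and the groups overlapped. Fzd7, a receptor of crypt stem cells, had 5.29, 5.71 and 5.77 in PBS and 5.51, 6.25 and 6.17 in free Ub. Free Ub replicate 1 fell within the PBS range, and the difference of 0.39 had an exact permutation p = 0.3. Fzd6 had 2.85 ± 0.48 and 3.51 ± 0.41 (exact permutation p = 0.2). The difference of Fzd6 was 0.66, and it was 0.93 without PBS replicate 2 and 1.02 with its probes averaged, both with an unadjusted p under 0.05 in limma. The mean of Fzd6 was 3.18, under 4 log2, a level where the signal over the floor was too small to size a difference. The second probe of Fzd6 was at the floor on every PBS array and on free Ub replicate 2, so the averaged difference has no measured size either. The difference of Fzd7 was 0.62 without free Ub replicate 1, the lowest array of its group, also with an unadjusted p under 0.05 in limma.

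Of the co-receptors, Lrp6 had 2.83, 2.13 and 4.34 in PBS and 3.51, 3.35 and 4.12 in free Ub, with PBS replicate 3 above all other arrays. Without that array the difference of Lrp6 was 1.19, with an unadjusted p under 0.05 in limma, against 0.56 with it, and with values under 4 log2 raised to 4 it was -0.07. Lrp5 had 3.79 ± 0.64 in PBS, and in free Ub 3.95 and 3.75 with replicate 2 at the floor. Fzd3 and Fzd8 had lower means in free Ub by 0.69 and 0.45, and Fzd1 and Fzd4 were at the floor on 3 arrays each. Of the 11 receptors, 7 means were higher and 3 lower in free Ub. Their median difference was 0.24, and it was -0.0004 without PBS replicate 1, 0.02 without free Ub replicate 3 and 0.48 without PBS replicate 3.

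The ligands gave no difference at an unadjusted p under 0.05. Wnt4, one of the secreted Wnt proteins, had 6.42, 6.50 and 6.62 in PBS and 6.91, 6.18 and 6.18 in free Ub, where replicate 1 was above and the others below every PBS array. Without free Ub replicate 1 the difference of Wnt4 was -0.33, with an unadjusted p under 0.05 in limma, against -0.09 with all arrays. Porcn, the enzyme that attaches the lipid that Wnt ligands need for secretion, had 6.03, 5.84 and 5.94 in PBS and 6.55, 5.83 and 6.57 in free Ub. Here replicate 2 of free Ub was the lowest of the 6 arrays and the other 2 were the highest. Without replicate 2 of free Ub the difference of Porcn was 0.62, with an unadjusted p under 0.05 in limma, against 0.38 with it. The p-values of Wnt4 and Porcn followed the removal of the array that stood apart from its group and do not support a difference. Wnt5a, a mesenchymal ligand that acts mainly without beta-catenin, had 5.41, 5.12 and 4.97 in PBS and 4.81, 4.80 and 5.26 in free Ub, a difference of -0.21 (95% interval -0.71 to 0.28) with overlapping groups.

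Wnt3, the ligand that Paneth cells supply to stem cells, was at the floor on 2 arrays and no higher than 2.81 on any. Wnt2b, a stromal ligand, had 2.40 ± 0.32 in PBS, and in free Ub 2.68 and 2.71 with replicate 3 at the floor. Wnt6 had 4.12 ± 0.71 and 4.20 ± 0.31, and Wnt9b was at the floor on 1 array of each group. Rspo3, the R-spondin of the crypt stroma, had 3.41, 3.59 and 3.18 in PBS and 2.83, 4.08 and 4.38 in free Ub, so that 2 free Ub arrays stood above the PBS arrays and 1 below. The difference of 0.37 was 0.84 without free Ub replicate 1, with an unadjusted p under 0.05 in limma, and -0.30 when both Rspo3 probes were averaged. Of the 11 ligands and ligand partners, 3 (Wnt6, Rspo3 and the enzyme gene Porcn) had a higher mean in free Ub. Another 5 had a lower mean, and the other 3 stayed at the floor.

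On each array the members were also summed up by their median. For the 36 members with any signal, the median deviation from each gene's own mean over the 6 arrays was -0.18, 0.01 and -0.05 log2 on PBS replicates 1 to 3 and -0.06, 0.11 and 0.22 on free Ub replicates 1 to 3. Receptors stood at -0.37, -0.37 and 0.12 in PBS and at -0.11, 0.33 and 0.48 in free Ub, and the feedback and secreted inhibitors at -0.28, -0.27 and -0.08 against -0.58, -0.05 and 0.56. The groups overlapped in each of these 3 sets. In both roles free Ub replicate 1 lay below PBS replicate 3 and free Ub replicate 3 was the highest array. The ligands stood at -0.075, 0.069 and -0.074 in PBS and at 0.43, -0.03 and -0.30 in free Ub, which overlap. For the cytoplasmic and nuclear parts the medians stayed within -0.02 to 0.19. For the 16 members with a mean above 4 log2 the medians were -0.07, -0.06 and -0.03 in PBS and -0.03, 0.11 and 0.10 in free Ub, where every free Ub array lay above every PBS array, replicate 1 by less than 0.01. Over all named genes with any signal the same medians ran from -0.04 to 0.04. They were not taken over the named genes above 4 log2 alone, so the 16 members have no like set beside them.

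Many members had more than 1 probe, and the probes did not always move the same way. The 41 members had 86 probes, 26 of them more than 1, and for 11 members the probes above the floor differed in sign: Wnt5a, Wnt6, Rspo3, Fzd3, Fzd5, Apc, Axin1, Ctnnb1, Dvl1, Tcf7l2 and Lef1. In the fit over all probes, 6 of the 86 had an unadjusted p under 0.05 (5.16% of all probes on the array did) and none passed the adjustment. They were single probes of Apc, Axin2, Dvl1, Fzd2 and Gsk3b, all higher in free Ub, and of Ctnnb1, the third by signal, which was lower.

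The rest of the pathway was read from 63 further ligands, receptors, cytoplasmic parts and inhibitors, of which 61 were measured and 8 were at the floor throughout. Here 22 means were higher and 31 lower in free Ub. In each direction 1 gene had an unadjusted p under 0.05, together 3.28% of those measured, beside 5.56% of all named genes. None passed the adjustment. The same 2 genes were the only ones with groups apart (3.28%), beside 8.76% of all named genes. Bcl9l, a co-activator that binds beta-catenin, had 7.58, 7.83 and 7.75 in PBS and 7.54, 7.23 and 7.03 in free Ub. Every free Ub array was below every PBS array, with a difference of -0.45 log2 (adjusted p = 0.871 in limma), and the unadjusted p rose above 0.05 in 7 alternative fits, among them those without PBS replicate 2 (-0.40) or 3 (-0.44) and without replicate 2 (-0.44) or 3 (-0.34) of free Ub. Pygo2, which joins the same complex through Bcl9 proteins, differed by -0.33, and the Wnt5a receptor Ror2 by -0.30 (adjusted p = 0.878 for each in limma). The other gene was the ligand Wnt2, named after its values were seen, which was at the floor on every PBS array and at 1.75, 3.31 and 1.62 in free Ub (adjusted p = 0.718 in limma).

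Genes that beta-catenin and Tcf factors are known to switch on in intestinal epithelium showed no common direction. Of 24 listed, 23 were measured, 11 were higher and 11 lower. An unadjusted p under 0.05 was found for 1 (4.35%), beside 5.56% of all named genes. The same gene was the only 1 with groups apart (4.35%), beside 8.76% of all named genes. This was Ccnd1, the cell cycle gene of cyclin D1, with 10.15, 10.11 and 10.18 in PBS and 9.36, 9.82 and 9.87 in free Ub. Its groups were apart by 0.24 log2 and the difference was -0.46 (adjusted p = 0.862 in limma), with an unadjusted p above 0.05 in 6 alternative fits, among them those without PBS replicate 1 (-0.46), 2 (-0.48) or 3 (-0.44). Sp5, a transcription factor gene that responds directly to Wnt, had 9.09, 9.17 and 8.98 in PBS and 9.47, 8.88 and 9.44 in free Ub, which overlap. Id2 differed by -0.21 (adjusted p = 0.878 in limma), and by 0.35 with its 3 probes averaged.

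The promoters of Axin2 and Gsk3b, the members above 6 log2 with groups apart, and of Sp5, the target shown for comparison, are printed here because a Tcf-binding core can be looked for in them. They are the 250 bases before the transcription start from RefSeq on GRCm38.p6, written 5′ to 3′ on the gene's strand, with capitals at each match to CTTTGA or to its reverse complement TCAAAG.
Axin2 (chr11:108920099-108920348, plus strand): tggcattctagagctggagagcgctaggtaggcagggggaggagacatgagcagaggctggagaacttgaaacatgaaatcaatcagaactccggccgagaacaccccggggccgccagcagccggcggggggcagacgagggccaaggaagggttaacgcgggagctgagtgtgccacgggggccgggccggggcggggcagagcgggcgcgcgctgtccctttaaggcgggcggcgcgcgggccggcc
Gsk3b (chr16:38088751-38089000, plus strand): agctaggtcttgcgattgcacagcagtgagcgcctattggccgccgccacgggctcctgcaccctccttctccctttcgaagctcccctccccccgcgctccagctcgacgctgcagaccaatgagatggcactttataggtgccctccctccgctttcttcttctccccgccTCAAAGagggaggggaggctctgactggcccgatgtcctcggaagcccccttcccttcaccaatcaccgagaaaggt
Sp5 (chr2:70474673-70474922, plus strand): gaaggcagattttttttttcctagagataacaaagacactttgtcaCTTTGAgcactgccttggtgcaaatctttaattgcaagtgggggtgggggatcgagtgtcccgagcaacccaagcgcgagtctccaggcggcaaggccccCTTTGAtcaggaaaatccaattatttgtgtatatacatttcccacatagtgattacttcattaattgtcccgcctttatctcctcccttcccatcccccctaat
Axin2 had no match in this window, Gsk3b had 1, beginning 77 bases before the start, and Sp5 had 2, beginning 204 and 104 bases before it. Of the 42 members, 25 had a promoter in the RefSeq table, and 4 of them (Fzd1, Gsk3b, Lef1 and Wnt11) held a match, or 16%. The share was 15.8% of all 27025 genes with a promoter and 20% of the listed target genes (3 of 15: Mmp7, Sp5 and Tnfrsf19). A match describes letters in the window and no binding site.

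In bulk tissue, fewer cells of a type and less RNA per cell cannot be told apart. The tissue matched its label. Vil1, the villin of the intestinal brush border, ranged from 12.49 to 12.87 over the 6 arrays, whereas the probe of Fabp2, another enterocyte gene, was at the floor on 3. The mean of 10 epithelial markers was 9.46 to 9.81 in PBS and 9.63 to 9.64 in free Ub, and 1 of them, Cdx2, had groups apart and was lower in free Ub by 0.27 (adjusted p = 0.822 in limma). Fibroblasts and telocytes are the stromal source of many ligands. The mean of their 11 markers was 4.41 to 4.85 in PBS and 4.64 to 4.93 in free Ub. None of the 11 had an unadjusted p under 0.05, and the defining marker of telocytes, Foxl1, was at the floor on 5 arrays. Of these markers, 6 were higher in free Ub and 5 lower. The largest difference, 1.18, came from Cd34, with a mean of 2.70. Among those above 4 log2, Foxf1 was higher by 0.12. Pdgfra, Pdpn, Col1a1, Col3a1 and Dcn, also above 4 log2, differed by -0.15, -0.26, -0.12, -0.32 and -0.08. Smooth muscle markers were uneven within PBS, with means of 8.67, 8.05 and 7.24, against 8.48, 8.17 and 8.20 in free Ub. The mean of 6 Paneth cell markers was 8.66 to 10.19 in PBS and 8.64 to 9.71 in free Ub. The 7 immune markers had means of 4.14 to 4.31 in PBS and 4.35 to 4.83 in free Ub. By gene, 4 were higher in free Ub and 3 lower. Their largest difference, 1.83, came from Itgam, with a mean of 2.59. Cd3e, Nkg7 and Adgre1, all above 4 log2, differed by -0.12, -0.23 and -0.31. The 8 endothelial markers had means of 5.21 to 5.68 in PBS and 5.28 to 5.54 in free Ub, 3 genes higher and 5 lower. Of these, Eng (-0.56) and Robo4 (-0.46) had an unadjusted p under 0.05, as did 5.56% of all named genes, and neither passed the adjustment. The part of these markers in the differences of Axin2, Apc and the other members was not tested.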

How the data were processed

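Total RNA from mouse intestine, from which ribosomal RNA was removed per the labels, was hybridised to Illumina MouseWG-6 v2 BeadChips (3 PBS and 3 free Ub samples, grouped by their titles). GenomeStudio, in a version that is not stated, was used by the authors for processing and for cubic-spline normalization. The deposited values were read as log2 signals from their range, which reaches 14.5; the transform itself is not described. Background handling, the floor and detection p-values are not given in the sources used here. Array number limits the precision.

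Of 45281 probes, 34885 had 1 gene symbol in the platform annotation, 18 had several and 10378 none. Symbols were updated through Entrez identifiers and RefSeq synonyms, and each of the 19038 named genes was read on its probe with the highest mean. Values no more than 0.01 above the lowest of the array counted as at the floor. Free Ub was compared with PBS with limma 3.58.1 under R 4.3.3 (lmFit, then eBayes, no covariate, two-sided, intervals of 95%), with Benjamini-Hochberg adjustment over all named genes. The procedure was tested on simulated data.

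The members, the 3 further gene lists, the roles and the tests were chosen with earlier results of these data known. Values on each array were given for members with an unadjusted p under 0.05 or groups apart and a mean above 4 log2, for the 3 with the highest signal in each role, for any at the floor throughout one group, and, for single others whose arrays split, after their values were seen. Outside the members, up to 3 genes per list with the smallest p and a mean above 4 were named. Alternatives were median centring, quantile normalization, low values raised to 4 or 6 log2, only genes above the median of the probe means, averaging all probes of a gene, limma over all probes, array weights, robust variances with an intensity trend, the replicate number as a block, the methods' t-test, and leaving out each array. A fit without the 1138 genes at the floor on all 6 arrays was added after the data were seen.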

Additional observations from a re-analysis of the deposited data

How the results depend on the processing

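No adjusted p under 0.05 was found for a member under any alternative, while the count over all named genes ranged from 0 to 28 (11 as reported). With values under 6 log2 raised to 6, 1 of the 13 members that entered had an unadjusted p under 0.05, against 3 as reported. This count was 1 of 26 with only genes above the median of the probe means, and 2 to 6 when 1 array was left out. The first 2 of these fits kept only part of the named genes, of which 372 and 613 had such a p. The totals that entered are not given, so these 2 counts are not read as a result about the members. Members with groups apart (4) numbered 2 with the floor at 6, and 5 to 8 when 1 array was left out, where smaller groups separate more easily. No share over all named genes is given for groups apart in these alternatives, so these counts are not read as a result about the members. The median difference of the members was 0.09 (0.0882) without genes at the floor on all 6 arrays, by construction, and -0.0033 to 0.0976 with 1 array left out. The median of the receptors was 0.0 with floors of 4 and 6 and 0.0204 for genes above the median of the probe means, and -0.0004 to 0.4811 with 1 array left out. That of the cytoplasmic and nuclear parts was 0.1532 for genes above the median of the probe means and -0.1045 to 0.241 with 1 array left out. When all probes of a gene were averaged, the ligands' median was -0.2099 and the difference of Apc turned to -0.0709. The cause of the shifts not set by construction was not tested. Single genes were not read in the t-test. In the other alternatives Apc kept an unadjusted p under 0.05 in 15 of 17 and Axin2 in 11 of 17. Fzd2 did so in all 14 it entered, and Gsk3b had one in 3. These fits use the same arrays and are not independent of each other. Same-numbered PBS and free Ub arrays deviated with correlations of -0.08, -0.09 and -0.40 from their group means, so the numbers were not taken as pairs; with the replicate block 4 members had an unadjusted p under 0.05 (Fzd7 joined) and none an adjusted one. The methods' t-test gave 4 of 36 members unpaired and 2 of 36 paired, and 0 of them after adjustment in either form. It covered the 17900 named genes with any signal, of which 853 had an unadjusted p under 0.05 unpaired and 773 paired. Below 4 log2, where 25 members lay, the signal over the floor was too small to size a difference.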

Other observations

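Some probes of the members were above the floor in 1 group alone. Apart from the only probe of Wif1, they were lower-signal probes of their genes. No share over all probes is given, so the counts are not read as a result about the members. Of the 86 member probes, 40 had a signal above the floor on every array and 9 on none. Another 8 had a signal on at least 1 free Ub array and on no PBS array, but never on all 3 free Ub arrays. The reverse held for 8 probes, 1 of them above the floor on all 3 PBS arrays. This was the third probe of Notum, with 3.13, 0.76 and 0.87 in PBS and the floor on every free Ub array, whereas the first Notum probe had overlapping groups. The third probe of Lef1 was at the floor in PBS and at 1.25 and 1.87 on 2 free Ub arrays, and the second probe of Fzd6 at the floor in PBS and at 2.65 and 1.49 on 2 free Ub arrays.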
